A study of Macaca mulatta with 2 samples.

Results

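RPSA, RPS3A, RPS24 and RPS25 encode proteins of the small (40S) ribosomal subunit. They are represented by 6 of the 7904 genes measured here in rhesus macaque peripheral blood mononuclear cells (the lymphocytes and monocytes of blood). The 6 genes were found by symbol through a table of Ensembl macaque identifiers, which named 724 of the 7904 genes. Genes that share a symbol were kept apart: RPSA and RPS24 each had 2 genes, and RPS3A and RPS25 each had 1. In total RNA from a single blood sample, for which the labels give no age, sex or treatment of the animal, 1 library was titled LongInsert and 1 Regular. The design therefore holds no biological contrast: it sets library preparations and sequencers side by side, and nothing gives the spread between libraries of one kind.

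The titles cannot be tied to an instrument. The protocol describes, for a MiSeq, cDNA from a SMRT kit cut and tagged by Nextera and sized on a gel, and for the other sequencer a standard Illumina preparation. Paired reads were 300 nt on the MiSeq and 75 nt on the other. The instrument in the name of the LongInsert table is a HiSeq, whereas the gel sizing goes with its title. Every direction below refers to the title alone.

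Ribosomal protein genes are among the most highly expressed genes of nucleated cells. Each ribosome carries a single copy of most of its proteins, and their mRNAs share a pyrimidine tract at the 5′ end through which their translation is controlled together. These genes have also left many processed pseudogenes and near-identical copies in primate genomes, so that short reads can match several places. RPSA, also known as the laminin receptor, and RPS3A lie on the back of the small subunit near the exit of the mRNA channel. RPS24 is spliced into several isoforms and is mutated in some cases of Diamond-Blackfan anaemia, a failure of red cell production. RPS25 sits on the head of the subunit and is needed for initiation at several viral internal ribosome entry sites.

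Abundances are in TPM, the usual length-scaled unit of transcript abundance, so that levels of different genes can be compared within a library. Of the 1000000 TPM of a whole library, the tables analysed hold 130234 for LongInsert and 152883 for Regular, and no value is exactly 0. Depth is unknown, since this unit does not record how many reads were counted, and no counting interval can be given. Of 45 marker symbols for blood cell types, 2 were among the genes analysed. The platelet integrin gene ITGB3 was at 3.29 TPM in LongInsert and at 1.77 TPM in Regular, and the haemoglobin gene HBA1 at 0.0093 and 0.0035 TPM. None of the lymphocyte or monocyte markers of that list was among the genes analysed, so it could not check the labelled cell type. Outside the list, and chosen after their values were seen, FCGR1A, a monocyte Fc receptor gene, was at 6.69 TPM in LongInsert and at 8.47 TPM in Regular, SIRPA, a myeloid receptor gene, at 5.35 and 7.38 TPM, and FCRL5, a receptor gene of B cells, at 32.7 and 10.9 TPM.

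The 4 symbols together had almost the same summed level in both libraries, 8629 TPM in LongInsert against 8548 TPM in Regular. As a share of the TPM held by the genes analysed, the sum was 6.63% in LongInsert and 5.59% in Regular, so its closeness depended on the scaling. Their make-up differed widely. In LongInsert, RPS24 took 36.0% of the sum, RPSA 29.5%, RPS3A 19.3% and RPS25 15.2%. In Regular, RPSA alone took 88.3%, RPS24 took 10.8%, RPS25 took 0.709% and RPS3A took 0.147%. Without RPSA the sum was 6.09-fold higher in LongInsert, at 6087 TPM against 999.6 TPM in Regular, so the near-equal total rested on RPSA being higher in Regular. Sums close to each other were not particular to these genes: the 13 large-subunit genes averaging at least 1 TPM over both libraries summed to 22896 and 22393 TPM, and the 365 genes with a symbol at that level summed to 55350 and 54719 TPM.

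**Figure D1:**
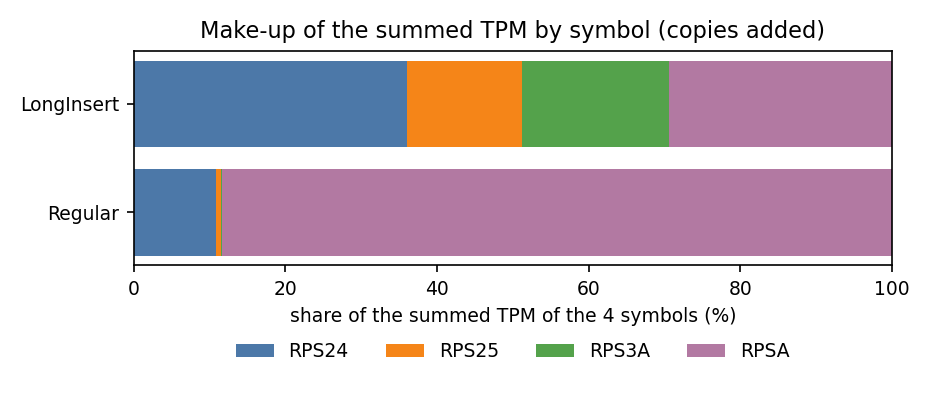
Share of the summed TPM of RPSA, RPS3A, RPS24 and RPS25 taken by each symbol (horizontal axis, percent), with the genes of a symbol added together, for the LongInsert and the Regular library (1 library each). All 4 symbols are visible in LongInsert, at 15.2% or more each, whereas RPSA fills 88.3% of the bar for Regular and RPS3A, at 0.147%, is too thin to see.

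The level of RPSA comes almost wholly from ENSMMUG00000022965. That gene reached 2532 TPM in LongInsert and 7539 TPM in Regular, where it was 2.98-fold higher. It was the 14th most abundant gene analysed in LongInsert and ranked 3 in Regular. On the log2 scale with 1 TPM added to both values, which is used for all ratios below and is positive where LongInsert is higher, its ratio was -1.57. It was the only gene of the 6 that was at least 2-fold lower in LongInsert. The other RPSA gene, ENSMMUG00000004941, stood at 9.39 TPM in LongInsert against 9.18 TPM in Regular, a log2 ratio of 0.03. While the abundant gene differed by almost 3-fold, this one was level.

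RPS3A was the gene of the 6 with the widest difference. ENSMMUG00000002676 had 1665 TPM in LongInsert, rank 20 of the genes analysed, and 12.5 TPM in Regular, rank 455. The value in LongInsert was 133-fold that in Regular, a log2 ratio of 6.94. Of the 1310 genes averaging at least 1 TPM, it had the third highest ratio, and among the 365 of these with a symbol it ranked 2. A ribosomal protein gene near the top of the genes analysed in one library was thus a gene of modest level in the other.

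RPS25 (ENSMMUG00000016894) stood at 1315 TPM in LongInsert against 60.6 TPM in Regular. This was a 21.7-fold difference, with a log2 ratio of 4.42, and ranked 12 among the 365 genes with a symbol. Both RPS24 genes were also higher in LongInsert, though by less. The more abundant, ENSMMUG00000030562, had 2692 and 840 TPM (3.21-fold, log2 ratio 1.68). The other, ENSMMUG00000032410, stood at 415 TPM in LongInsert against 87.0 TPM in Regular (4.78-fold, log2 ratio 2.24).

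**Figure D2:**
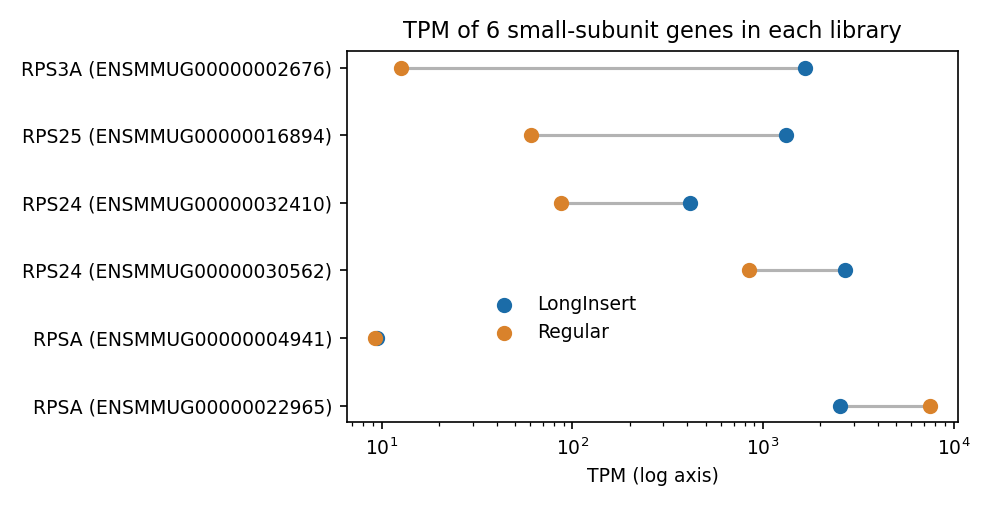
TPM (horizontal log axis) of the 6 genes in LongInsert (blue) and Regular (orange), 1 library each, with a grey line joining the values of a gene. The 5 genes other than ENSMMUG00000004941 differ by more than 2-fold, from 133-fold higher in LongInsert for RPS3A to 2.98-fold higher in Regular for RPSA.

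The order of the 4 symbols was different in each library. From highest to lowest it ran RPS24 (3107 TPM), RPSA (2542 TPM), RPS3A (1665 TPM) and RPS25 (1315 TPM) in LongInsert. It ran RPSA (7548 TPM), RPS24 (926 TPM), RPS25 (60.6 TPM) and RPS3A (12.5 TPM) in Regular. The highest was 2.36-fold the lowest in LongInsert and 603-fold the lowest in Regular. With 1 library of each kind, no spread between replicates exists against which neighbours in either order could be set.

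Ratios of genes within a library do not depend on how the library was scaled. RPSA was 1.53-fold RPS3A in LongInsert and 603-fold in Regular, and 1.93-fold RPS25 in LongInsert and 125-fold in Regular. RPS24 was above RPSA in LongInsert, at 1.22-fold, whereas RPSA was 8.15-fold RPS24 in Regular. RPS3A was 1.27-fold RPS25 in LongInsert, and RPS25 was 4.84-fold RPS3A in Regular. RPS24 was 2.36-fold RPS25 in LongInsert and 15.3-fold in Regular. Of the 6 pairs that the 4 symbols form, the pair of RPS3A and RPS25 shifted least between libraries, by 6.12-fold, and that of RPSA and RPS3A shifted most, by 395-fold. The SD of log2 TPM over the 4 symbols, a description of their spread, was 0.56 in LongInsert and 4.10 in Regular.

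The spread of large-subunit levels in Regular rested on a few genes. Over the 12 large-subunit genes averaging at least 100 TPM, the highest level was 19.5-fold the lowest in LongInsert and 11903-fold in Regular. Without RPL38, the range in Regular was 157-fold and that in LongInsert was still 19.5-fold. RPL38, RPL30 and RPL39 reached that mean through LongInsert alone. Over the 9 genes with 100 TPM or more in both libraries, the ranges were 19.5-fold in LongInsert and 23.1-fold in Regular. That limit leaves out any gene low in Regular, so it narrows the range there by itself. It would also leave out RPS3A (12.5 TPM in Regular) and RPS25 (60.6 TPM). The last 2 comparisons were added after seeing the data.

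The proportion between the copies of a symbol differed between libraries by 1.49-fold for RPS24, under the 2-fold rule, and by 3.05-fold for RPSA. With 1 library of each kind, neither difference was tested. For RPS24, the more abundant gene was 6.48-fold the other in LongInsert and 9.66-fold in Regular, so the lower gene held 13.4% of the symbol's TPM in LongInsert and 9.38% in Regular. Most of the level was at the same gene in both libraries. For RPSA, the abundant gene was 270-fold the other in LongInsert and 822-fold in Regular, and the lower gene held 0.370% and 0.122%. Either way, adding the copies left the difference between libraries close to that of the abundant gene, at 3.35-fold higher in LongInsert for RPS24 and 2.97-fold higher in Regular for RPSA. How reads shared between copies were assigned is not given in the sources used here, so the division between copies is uncertain, and copies among the genes without a symbol could not be added. The RefSeq gene table for the assembly T2T-MMU8v2.0, used only for names, holds 1 gene each under the symbols RPSA, RPS24 and RPS25, and RPS3A was not matched. Each of the 6 genes had 1 transcript in the tables, so no isoforms could be compared, including those known for RPS24.

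All 6 genes passed the minimum mean of 1 TPM, the lowest being ENSMMUG00000004941 with a mean of 9.28 TPM. By a rule of size, 4 of the 6 were at least 2-fold higher in LongInsert and 1 was at least 2-fold lower. Of all 1310 genes at that minimum, 50.8% were higher and 19.8% lower. Of the 365 with a symbol the shares were 53.7% and 9.59%. The median log2 ratio of the 6 genes was 1.96, against 1.04 for all 1310. However, the minimum was set on the mean, so genes could pass it through a single library and be at least 2-fold apart for that reason. Examples are ENSMMUG00000002572, with 72.8 TPM in LongInsert against 0.0203, and ENSMMUG00000032571, with 0.0057 against 57.6. Each of the 6 genes had at least 9.18 TPM in both libraries. Neither 4 of 6 nor the median of 1.96 can therefore be read against the values for all 1310 genes or the 365. All of the 6 except ENSMMUG00000004941 averaged at least 100 TPM. Of the 153 genes at that level 26.1% were higher in LongInsert and 28.1% lower, with a median of 0.06. However, RPS3A (12.5 TPM), RPS25 (60.6 TPM) and the lower RPS24 gene (87.0 TPM) were under 100 TPM in Regular. They reached that mean only through LongInsert, so their being higher there cannot be read against these shares.

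The median log2 ratio of the 625 genes averaging at least 10 TPM was 0.59. The median was lower among more abundant genes, at 0.06 from a mean of 100 TPM, as given above, and 0.02 over the 28 genes averaging at least 1000 TPM. The 0.59 is therefore not the shift of genes at the level of most of the 6. Relative to the 0.59, RPS3A was at 6.35, RPS25 at 3.82, the RPS24 genes at 1.09 and 1.65, and the abundant RPSA gene at -2.17, so that the same 4 genes were at least 2-fold higher and the same 1 lower. Of all 1310 genes, 38.5% were then higher and 25.5% lower, and the share of higher genes among the called ones was 60.2%, against 71.9% before. The low RPSA gene was then at -0.56, so its sign depended on the scaling.

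**Figure D3:**
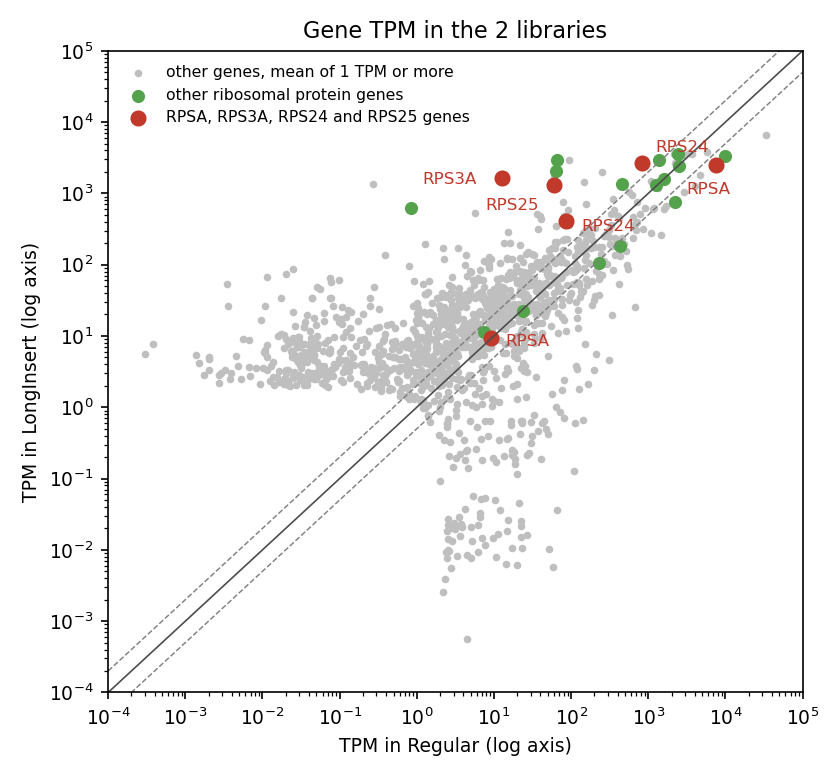
TPM in Regular (horizontal log axis) and in LongInsert (vertical log axis) of the 1310 genes averaging at least 1 TPM, 1 point per gene. The solid line marks equal values and the dashed lines a 2-fold difference. RPS3A (1665 and 12.5 TPM) and RPS25 (1315 and 60.6 TPM) lie far above the line, beside some other ribosomal protein genes (green), and the abundant RPSA gene lies below it.

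Of 37 symbols in a list of small-subunit proteins and their near relatives, 7 were among the genes analysed, with 9 genes. Beside the 6 genes above these were RPS2, RPS27A and RPS27. RPS2, a protein at the mRNA entry side of the subunit, was at 11.4 TPM in LongInsert and at 7.40 TPM in Regular, with a ratio of 0.56. RPS27A, which is made as a fusion with ubiquitin, had 107 and 233 TPM and a ratio of -1.11, so that it was lower in LongInsert like RPSA. RPS27, with 0.186 and 0.0575 TPM, was below the minimum. Of the 8 genes above it, 4 were higher (50%), 2 lower (25%) and 2 within 2-fold, beside 50.8% higher and 19.8% lower of all 1310 genes. The median was 1.12, beside 1.04 for all genes. The values for all genes include genes that passed the minimum through a single library, so nothing is read from their likeness to those of the 8. At a minimum mean of 10 TPM, which leaves out RPS2 and the low RPSA gene, the median was 1.96, beside 0.59 for all genes. The small-subunit genes left all averaged at least 100 TPM, where the median over all genes was 0.06, so 0.59 is not the shift at their level. RPS3A, RPS25 and the lower RPS24 gene reached that level only through LongInsert. All 4 higher genes belong to RPS3A, RPS24 and RPS25.

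Large-subunit genes also differed in both directions. Of the 13 above the minimum, 5 exceeded 2-fold in favour of LongInsert (38.5%), 3 were lower by as much (23.1%) and 5 lay within 2-fold. The shares over all 1310 genes were 50.8% and 19.8%, and over the 153 averaging at least 100 TPM they were 26.1% and 28.1%. Both sets include genes that passed through a single library, so the 13 were not read against these shares. The median of the 13 was 0.06. Relative to the median of 0.59 over genes averaging at least 10 TPM, 3 of the 13 were higher, 3 lower and 7 within 2-fold. However, 12 of the 13 averaged at least 100 TPM, where the median over all genes was 0.06, so 0.59 is not the shift at their level. The highest ratios were those of RPL38 (8.40, with 618 TPM in LongInsert against 0.837 TPM) and RPL30 (5.45, with 2902 against 65.4 TPM). The lowest were those of RPL10 (-1.60, with 3295 against 9959 TPM) and RPL15 (-1.59, with 748 against 2247 TPM). The range of the 6 small-subunit genes, from -1.57 to 6.94, lies inside the range of the large-subunit genes.

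Few other factors of the small subunit were measured: 2 of 34 symbols in the list of initiation factors and 2 of 33 in the mitochondrial list. Their ratios were smaller than those of RPS3A and RPS25. These 2 ranked 2 and 12 by ratio among the 365 genes with a symbol, so most genes had smaller ratios. EIF4A2, a helicase that unwinds the mRNA leader before the subunit loads, stood at 837 TPM in LongInsert against 352 TPM in Regular. Its ratio was 1.25, or 0.66 relative to the median of 0.59 over genes averaging at least 10 TPM. At the level of EIF4A2, from a mean of 100 TPM, that median was 0.06. EIF4B, which stimulates that helicase, had 519 and 327 TPM and a ratio of 0.67. Of the mitochondrial small subunit, MRPS15 had 55.5 and 49.3 TPM (0.17) and MRPS31 had 38.5 and 26.1 TPM (0.54). No gene of the list of 40S assembly factors was among those analysed.

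**Figure D4:**
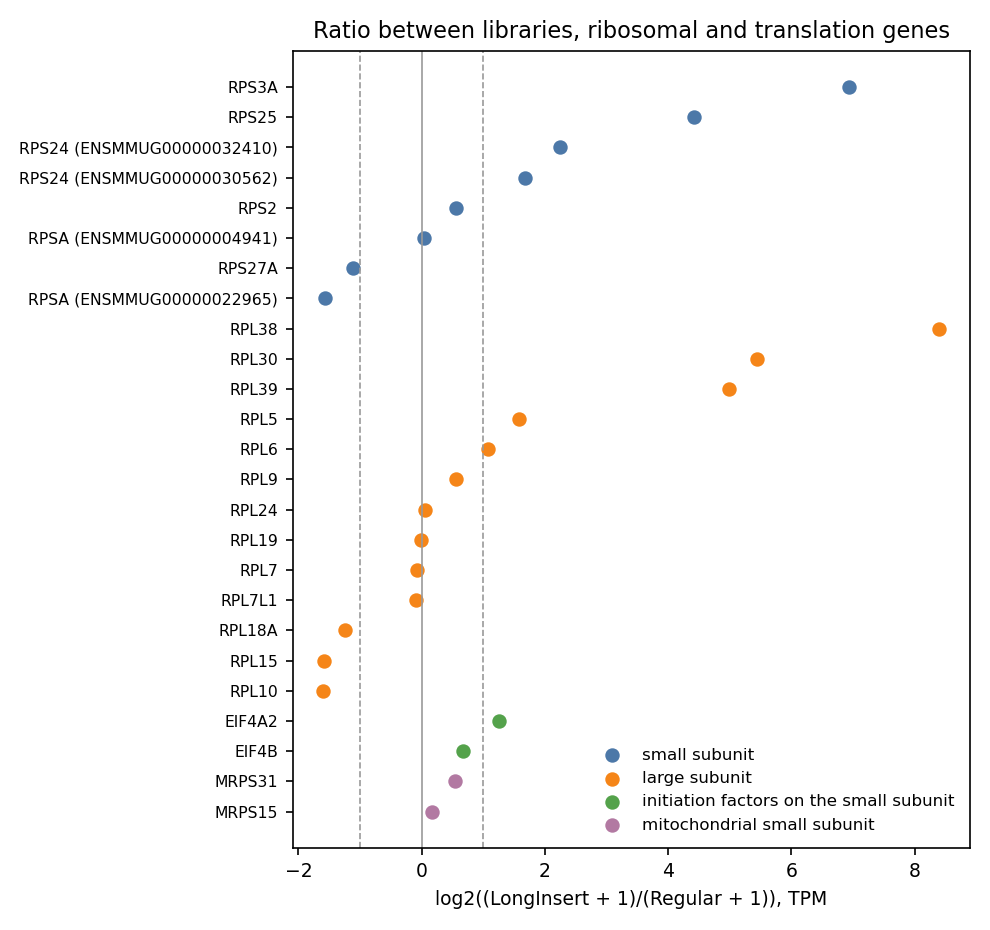
Log2 ratio of LongInsert to Regular with 1 TPM added (horizontal axis) of genes averaging at least 1 TPM, by group: small-subunit proteins (blue), large-subunit proteins (orange), initiation factors acting on the small subunit (green) and mitochondrial small-subunit proteins (purple), 1 point per gene. The solid line marks 0 and the dashed lines a 2-fold difference. Small-subunit genes run from -1.57 to 6.94 and large-subunit genes from -1.60 to 8.40.

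Likeness of pattern was taken as the distance between genes with a symbol in log2(TPM + 1) over the 2 libraries, so it reflects level as much as ratio, and with 2 values per gene it is only a description. The gene most like the abundant RPSA gene was RPL10, at a distance of 0.55, and the polyubiquitin gene UBB was also among its nearest (1277 TPM in LongInsert against 4084 TPM in Regular, distance 1.33). RPS25 was nearest to RPL39 (2032 and 63.4 TPM, 0.63), OGT (755 and 77.6 TPM, 0.87), which encodes the transferase that attaches N-acetylglucosamine to proteins, and RPL30 (1.15). RPS3A lay farther from its nearest gene than the other 5 did from theirs: that gene was RPS25, at 2.21, before the RNA-binding protein gene PCBP2 (513 and 35.9 TPM, 2.23) and RPL39 (2.27).

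The abundant RPS24 gene was nearest to RPL6 (2914 and 1385 TPM, 0.73), HNRNPA1 (1472 and 1366 TPM, 1.12), which encodes a splicing regulator, and RPL24 (1299 and 1246 TPM, 1.20). Its copy was nearest to IDS, the lysosomal iduronate sulfatase gene (231 and 88.3 TPM, 0.84), KIAA0040 (228 and 82.8 TPM, 0.86) and OGT (0.88). The low RPSA gene was nearest to PRORP (9.93 and 8.76 TPM, 0.09), LIMK2 (8.39 and 9.04 TPM, 0.15) and PTGR1 (7.28 and 8.35 TPM, 0.35), which encode a mitochondrial tRNA-processing enzyme, a kinase of cofilin and a prostaglandin reductase. The neighbours of the abundant genes were partly ribosomal protein genes, while those of both lower copies included none. This cannot be told apart from level. Of the 16 genes with a symbol at 1000 TPM or more in LongInsert, 13 encoded ribosomal proteins, members among them.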

How the data were processed

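The authors deposited, for each of 2 libraries from a single RNA sample of macaque blood mononuclear cells, a table with the TPM of every transcript it lists, per the file headers. CASAVA 1.8.2, STAR and Trimmomatic appear in the submitters' processing notes without order or role, and Isolator, an isoform quantifier, in the title of the series. For the build, the annotation and the treatment of multi-mapping reads, the entry is: not given in the sources used here. Sequences of the genes were not used here.

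Transcripts were summed per gene in Python 3.11.15 with pandas 2.3.3 and compared by the log2 of LongInsert over Regular after adding 1 TPM to both, a pseudocount that understates differences of low genes. With 1 library per group no test was made: genes averaging at least 1 TPM were set apart at 2-fold. The functions were tested on simulated data with exact changes, no noise and low starting values raised. Recovery was fixed in advance, so that test checks the code only and not the 2-fold rule on low or noisy values. Depth is unknown.

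The members and lists were chosen with earlier results of these data known. Genes named are all genes of the 4 symbols, the other listed small-subunit genes, the 2 highest and 2 lowest large-subunit ratios, listed genes of the lists of 40S assembly, initiation and mitochondrial small-subunit factors, and the 3 nearest genes with a symbol to each member. A gene that this rule takes is not reported here. Alternatives were other pseudocounts, centring, rescaling, other minimum means, the most abundant transcript or copy, and summed copies.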

Additional observations from a re-analysis of the deposited data

How the results depend on the processing

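The 5 genes at least 2-fold apart kept their direction and that difference under pseudocounts of 0.1 and 5 TPM, centring, rescaling to the listed total (a shift of 0.23 on the log2 scale) and rescaling without the 10 most abundant genes (-0.30). Their log2 ratios ran from 6.35 to 7.17 for RPS3A, 3.82 to 4.65 for RPS25, 1.09 to 1.91 and 1.65 to 2.47 for the RPS24 genes, and -2.17 to -1.34 for RPSA. The low RPSA gene, at 0.03, was at -0.56 after centring and -0.24 without the 10 most abundant genes. The log2 ratio of the summed symbols, 0.01, was 0.245 after rescaling to the listed total, the only rescaling run for it. It was -0.043 with the most abundant copy of each symbol only and 2.61 without RPSA, an alternative chosen after seeing the data. The small-subunit median of 1.12 was 0.56 with no minimum, which adds RPS27, 0.53 after centring and 1.96 at a minimum mean of 10 TPM. The median of all listed ribosomal proteins, 0.56, was -0.034 after centring. Of 70 recomputed values, 63 kept their direction and their side of 2-fold, or stayed within 1.5 times for counts and shares. The 63 include all values recomputed with the most abundant transcript, which could not change, as each of the 6 genes had 1. That was the only alternative run for the shares of copies, so nothing was learned about how steady those shares are. Leading transcripts were not compared, also because each gene had 1. No paired analysis was possible because each group held 1 library and no test was made. For the same reason no library could be left out.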

Other observations

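Genes high in one library and low in the other were counted with limits chosen after the values of RPS3A and RPS25 had been seen, so both belong to the count by construction. Of 32 genes with 1000 TPM or more in LongInsert, 7 were under 100 TPM in Regular. The 4 of them with a symbol were RPS3A, RPS25, RPL30 and RPL39, and 13 of the 16 genes with a symbol at that level encoded ribosomal proteins. The other 3 had no symbol: ENSMMUG00000003738 stood at 1333 TPM in LongInsert against 0.270 TPM in Regular, ENSMMUG00000017042 at 1696 and 59.3 TPM, and ENSMMUG00000023807 at 2960 and 94.9 TPM. In the other direction, of 27 genes with 1000 TPM or more in Regular, 0 were under 100 TPM in LongInsert, where the lowest had 264 TPM. With 1 library of each kind this difference between directions was not tested.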
